A study of Homo sapiens with 6 samples.

Results

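10 genes for the actin, myosin and tubulin machinery that megakaryocytes use to make proplatelets were examined in HEL cells, a human erythroleukemia line with erythroid and megakaryocytic features. They were chosen by name (*TUBB1*, *MYL9*, *MYH9*, *FLNA*, *TLN1*, *VCL*, *ZYX*, *TPM1*, *TPM4* and *ACTN1*), and all 10 were listed among the 31999 genes of the table. HEL cells stably transduced with lentiviral small hairpin RNAs were profiled by poly(A) RNA-seq, 3 libraries with a non-targeting hairpin (shCtrl) and 3 with a hairpin against TMIGD2 (shTMIGD2), a co-stimulatory receptor of the CD28 family. The cells of both groups carried the vector and were selected with puromycin. Each gene has 1 deposited value, its mean log2 CPM over all 6 libraries, where CPM are counts scaled to the total of a library. This value pools the shCtrl and shTMIGD2 cells, so it has no spread and no depth per library, and no difference between genes could be set against replicate error. How the members differ between shTMIGD2 and shCtrl cells was not analysed here, because the table's other columns are the authors' own comparison.

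Megakaryocytes shed platelets by extending long cytoplasmic processes, the proplatelets. Bundles of microtubules, which contain the platelet-specific beta-tubulin encoded by *TUBB1*, drive the extension and coil at the tips. Nonmuscle myosin IIA, made of *MYH9* heavy chains with regulatory and essential light chains, pulls on actin filaments that tropomyosins coat and alpha-actinins and filamins cross-link. Talin, vinculin and zyxin join these filaments to integrins at adhesion sites. Inherited defects of *TUBB1*, *MYH9*, *FLNA*, *ACTN1* or *TPM4* cause low platelet numbers with enlarged platelets.

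The pooled libraries had transcripts of the erythroid and megakaryocytic lineages, the features of the labelled line. All 12 erythroid and megakaryocytic markers examined lay between 5.52 (*EPOR*) and 10.54 (*ITGA2B*, integrin alpha-IIb) on the mean log2 CPM scale. Of the markers of other cells, *CD3E*, *CD3D* and *MS4A1* were not listed, and *COL1A1*, *COL1A2*, *EPCAM*, *MYH7*, *CNN1* and *MYH11* were below a mean log2 CPM of 0, that is below 1 CPM. *KRT8* (2.04), *DES* (1.27), *CKM* (0.89) and *ACTA1* (0.24) were above it. *TMIGD2* itself had a mean log2 CPM of 4.08 over shCtrl and shTMIGD2 libraries together. In bulk RNA a transcript found in fewer cells and a transcript at a lower level per cell cannot be told apart.

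All 10 members were above 1 CPM, a level reached by 14000 of the genes listed. Their mean log2 CPM ran from 1.57 for *MYL9* to 10.58 for *FLNA*, with a median of 7.79, and the median of those 14000 genes was 4.55. *FLNA*, *TLN1*, *MYH9* and *TPM4* were at 8.99 or above, *ZYX*, *ACTN1* and *VCL* between 7.59 and 7.89, and *TUBB1* and *TPM1* at 5.73 and 5.64. *MYL9* was the only member under the median of the genes above 1 CPM.

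**Figure D1:**
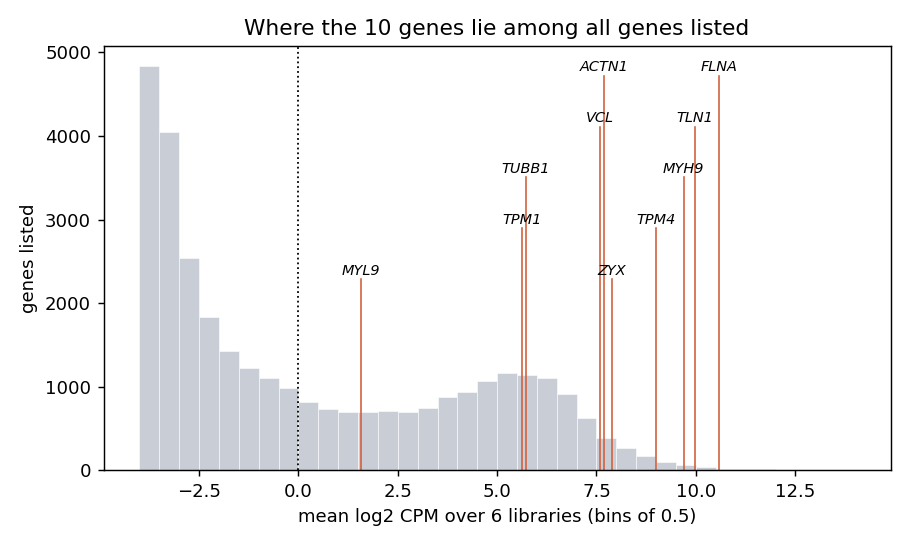
Number of genes listed (vertical axis) by their mean log2 CPM over the 6 libraries (horizontal axis, bins of 0.5), with orange lines at the 10 members and a dotted line at 0, which is 1 CPM. *MYL9* lies at 1.57, left of the other 9 members, which run from *TPM1* at 5.64 to *FLNA* at 10.58.

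A long transcript yields more fragments than a short one at the same number of molecules, so levels of different genes were compared per kb of transcript. 2 lengths are given, since the members differ in how much alternative exon their annotation holds. The first is the union of all exons of the gene (GENCODE 44, GRCh38), and the second is the canonical transcript alone. Per kb of exon union the order was *FLNA*, *TLN1*, *ZYX*, *MYH9*, *TPM4*, *VCL*, *TUBB1*, *ACTN1*, *TPM1* and *MYL9*. Per kb of canonical transcript it was *TPM4*, *FLNA*, *TLN1*, *MYH9*, *ZYX*, *ACTN1*, *TPM1*, *VCL*, *TUBB1* and *MYL9*. The same 5 genes, *FLNA*, *TLN1*, *ZYX*, *MYH9* and *TPM4*, were above the other 5 by either length, and *MYL9* was lowest by both. The places of *ACTN1*, *TPM1*, *VCL* and *TUBB1* among themselves depended on the length.

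**Figure D2:**
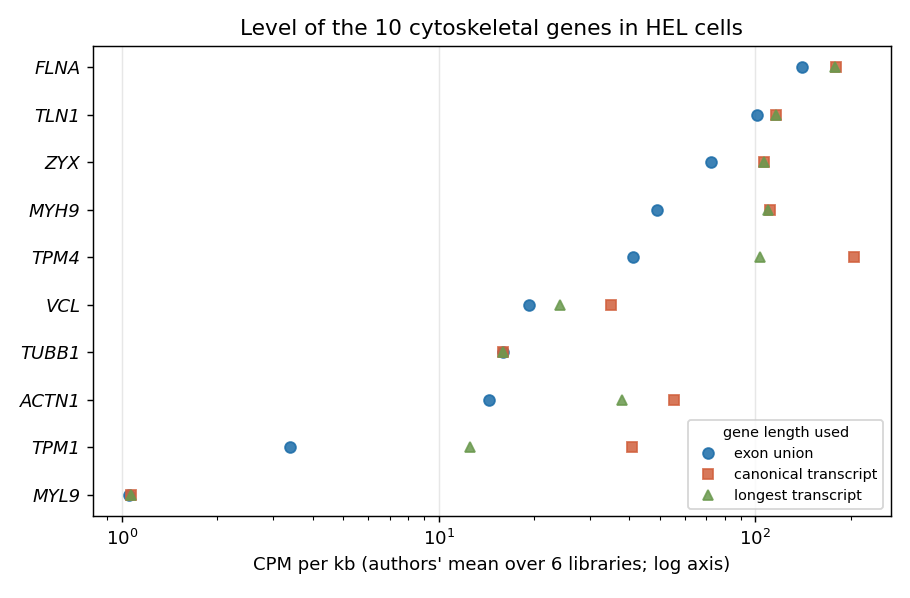
Level of each member in CPM per kb (horizontal log axis), from the authors' mean over the 6 libraries divided by the exon union (circles), the canonical transcript (squares) or the longest transcript (triangles). The 3 symbols lie close together for *TUBB1* and *MYL9* and far apart for *TPM1*, which runs from 3.39 to 40.9 CPM per kb.

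*TUBB1* encodes beta-1 tubulin, the main beta-tubulin of the platelet's microtubule ring. It lies at chromosome 20, 59019429 to 59026654 (plus strand), with 4 exons and 1 annotated transcript, so its length is the same by each definition. Its mean log2 CPM was 5.73, or 16.0 CPM per kb. Among the 12930 genes above 1 CPM with a known length it ranked 2960 per kb of exon union, within the top 22.9%. With length left aside it ranked 4343 of the 14000 genes above 1 CPM, within the top 31.0%. The ubiquitous beta-tubulin gene *TUBB* stood at 348 CPM per kb, 21.8 times the level of *TUBB1* per kb of exon union and 35.3 times per kb of canonical transcript.

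Of the 9 beta-tubulin genes examined, 7 were above 1 CPM, and *TUBB1* was the third per kb of exon union after *TUBB* and *TUBB4B* (131 CPM per kb). It held 3.09% of the family's summed level, and 2.02% with canonical transcript lengths. *TUBB6*, at 12.4 CPM per kb of exon union, was the nearest to it, and with canonical lengths *TUBB6* held the larger share, 3.29%. *TUBB3* (-3.66) and *TUBB8* (-1.64) were below a mean log2 CPM of 0. None of the 50-base stretches of the canonical *TUBB1* transcript recurred in a transcript of another gene, whereas 92.8% of those of *TUBB3*, 64.6% of those of *TUBB2A*, 63.9% of those of *TUBB8*, 54.9% of those of *TUBB2B* and 19.3% of those of *TUBB* did. For *TUBB4B*, *TUBB4A* and *TUBB6* the shared part was 10.4%, 6.73% and 1.09%. The shared part of *TUBB3* lay wholly in ENSG00000198211, an annotated gene that overlaps 21.3% of its exon bases on the same strand. Of the stretches of *TUBB*, 17.1% were shared with *TUBBP1*. *TUBB2A* and *TUBB2B* shared mostly with each other. The counts of the beta-tubulin genes other than *TUBB1*, and with them the family shares, are uncertain to that extent. Of the exons of *TUBB1*, 35.5% of the bases overlap *ATP5F1E*, a subunit gene of the mitochondrial ATP synthase on the opposite strand, whose mean log2 CPM was 7.24. The library kit keeps the strand, but the strand setting of the counting is not given in the sources used here. Whether the overlap raised or lowered the value of *TUBB1* was not tested.

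*MYH9* and *MYL9* encode 2 subunits of the same motor and stood far apart. *MYH9*, the heavy chain of nonmuscle myosin IIA, lies at chromosome 22, 36281280 to 36388010 (minus strand), with 41 exons in its canonical transcript. Its mean log2 CPM was 9.70, which is 48.8 CPM per kb of exon union and 112 CPM per kb of canonical transcript. *MYL9*, a regulatory light chain, lies at chromosome 20, 36541497 to 36551447 (plus strand), with 4 exons. Its mean log2 CPM was 1.57, or 1.06 CPM per kb by either length. *MYH9* was thus 46.2 times *MYL9* per kb of exon union and 105 times per kb of canonical transcript. *MYL9* ranked 10751 of the 12930 genes above 1 CPM, and *MYH9* ranked 874.

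The paralogs of the light chain held nearly all of its family's transcript. *MYL12B* was at 63.7 and *MYL12A* at 22.9 CPM per kb of exon union, which is 60.3 and 21.7 times the level of *MYL9*. *MYL9* held 1.20% of the summed level of these 3 regulatory light chain genes, and 0.630% with canonical lengths. The 50-base stretches of *MYL9* were found in no other gene, while 12.2% of those of *MYL12A* and 10.1% of those of *MYL12B* were shared, mostly between the pair. Summed over their families, the regulatory light chains reached 87.7 CPM per kb of exon union and the heavy chains 58.9. By canonical transcript *MYL12B* and *MYL12A* were at 95.2 and 72.6 CPM per kb, and *MYH9* and *MYH10* at 112 and 42.8. The gap between the sums thus depended on the length. Among the heavy chains *MYH9* held 82.8%, and 72.2% with canonical lengths. *MYH10*, the heavy chain of nonmuscle myosin IIB, held 17.1% and 27.7%. *MYH14* and the smooth muscle gene *MYH11* were at mean log2 CPM of -2.29 and -0.77.

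*FLNA* encodes filamin A, which cross-links actin and holds the platelet receptor subunit GP1BA to the cortex. It lies at chromosome X, 154348524 to 154374634 (minus strand), with 48 exons. It had the highest mean log2 CPM of the 10, 10.58, and ranked 44 of all genes listed when length was left aside. Per kb of exon union it stood at 141 CPM and ranked 236, within the top 1.83%. By canonical transcript it stood at 179 CPM per kb. *FLNC*, the muscle filamin, had a mean log2 CPM of -1.34. *GP1BA* had a mean log2 CPM of 5.86.

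*ACTN1* encodes alpha-actinin 1, which bundles actin filaments in antiparallel arrays. It lies at chromosome 14, 68874128 to 68979440 (minus strand), has 47 annotated transcripts and had a mean log2 CPM of 7.69. Per kb it was at 14.4 CPM by exon union and 55.5 CPM by canonical transcript. *ACTN4*, the other nonmuscle alpha-actinin, was higher by both lengths, 7.94 times by exon union and 2.53 times by canonical transcript. *ACTN1* held 11.2% of the family's summed level by exon union and 28.3% by canonical transcript. The muscle genes *ACTN2* (-2.25) and *ACTN3* (-2.93) were below a mean log2 CPM of 0.

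Tropomyosins wind along actin filaments and set which motors and cross-linkers can bind. All 4 tropomyosin genes were above 1 CPM. *TPM4*, at chromosome 19, 16067021 to 16103002 (plus strand), had a mean log2 CPM of 8.99 and stood at 41.1 CPM per kb of exon union and 205 CPM per kb of canonical transcript. *TPM1*, at chromosome 15, 63042620 to 63071915 (plus strand), had a mean log2 CPM of 5.64 and stood at 3.39 and 40.9 CPM per kb. *TPM4* was above *TPM1* by each length, 12.1 times by exon union and 5.02 times by canonical transcript. *TPM4* was first in the family only with the canonical transcript, where *TPM3* was at 0.612 times its level. *TPM3* was 1.43 times *TPM4* by exon union, 1.21 times by longest transcript and 1.75 times with length left aside. *TPM3* held 56.1% and *TPM4* 39.3% of the summed level by exon union, against 33.4% and 54.6% by canonical transcript. *TPM1* held 3.24% and 10.9%, and *TPM2* 1.38% and 1.03%.

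The annotation of these genes bears on their values. *TPM1* has 39 annotated transcripts with an exon union of 14700 bases, and its canonical transcript has 1217. *TPM4* has 35 transcripts, with 12375 and 2474 bases. Of the 50-base stretches of the canonical *TPM4* transcript, 23.5% recurred in 2 other genes, 19.3% in the pseudogene *TPM4P2*, so its count is uncertain to that extent. For *TPM1* no stretch recurred, but 22.7% of its exon bases overlap 2 genes on the opposite strand.

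**Figure D3:**
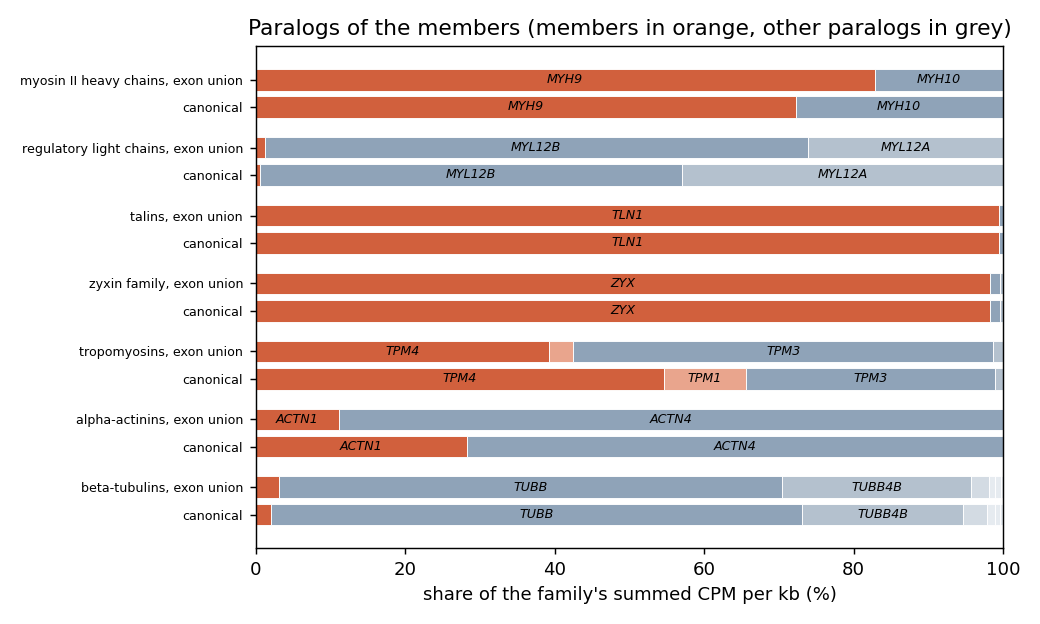
Share of each paralog family's summed CPM per kb (horizontal axis, %), computed with the exon union or the canonical transcript as length, for 7 families with more than 1 gene. Members are in orange (*TPM1* in light orange) and other paralogs in grey, and segments of 9% or more carry their names. *MYH9*, *TLN1* and *ZYX* fill most of their bars by both lengths, and *MYL9* and *TUBB1* take thin segments.

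*TLN1*, *VCL* and *ZYX* encode proteins of adhesion sites. *TLN1* encodes talin 1, which binds the tails of beta-integrins and switches them to the active form. It lies at chromosome 9, 35696948 to 35732195 (minus strand), with 57 exons in its canonical transcript, and had a mean log2 CPM of 9.97. It stood at 101 CPM per kb of exon union and held 99.5% of the summed level of the 2 talin genes. *TLN2* had a mean log2 CPM of 3.13, and *TLN1* was 188 times its level per kb of exon union and 160 times per kb of canonical transcript.

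*VCL* encodes vinculin, which binds talin under tension and links it to actin, and has no paralog in the families examined. It lies at chromosome 10, 73995193 to 74121363 (plus strand) and had a mean log2 CPM of 7.59. It stood at 19.3 CPM per kb of exon union and 35.1 CPM per kb of canonical transcript. *TLN1* was above *VCL* by either length, 5.25 times and 3.33 times. Of the exon bases of *VCL*, 11.1% overlap *AP3M1* on the opposite strand, which had a mean log2 CPM of 6.64.

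*ZYX* encodes zyxin, a LIM protein that gathers at strained actin filaments and brings VASP to them. It lies at chromosome 7, 143381295 to 143391111 (plus strand), with 10 exons, and had a mean log2 CPM of 7.89. It stood at 72.7 CPM per kb of exon union, above *MYH9* and *TPM4*, and at 107 CPM per kb of canonical transcript, below both. It held 98.3% of the summed level of the 3 zyxin family genes examined by both lengths, and 89.9% when length was left aside. *LPP* and *TRIP6*, its relatives, had mean log2 CPM of 4.70 and -0.35.

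By family, 3 of the 8 members compared with paralogs, *MYH9*, *TLN1* and *ZYX*, were highest of the family genes examined per kb of exon union. With canonical lengths *TPM4* made it 4. *TUBB1*, *MYL9*, *TPM1* and *ACTN1* were below at least 1 paralog by both lengths. The paralogs *MYH11* (smooth muscle), *FLNC*, *ACTN2* and *ACTN3* (muscle) were below 1 CPM. The tropomyosin paralog *TPM2* was above it, at a mean log2 CPM of 2.20.

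The partners of these genes, in a list of 40, were mostly well above the floor. Of the 39 that were listed (all but *GP1BB*), 38 were above 1 CPM, with a median of 42.4 CPM per kb of exon union, and the exception was the alpha-tubulin gene *TUBA8* at a mean log2 CPM of -2.49. The median of the members was 30.2, and that of all genes above 1 CPM with a length was 5.39. The actin genes *ACTB* (1076 CPM per kb of exon union, 2617 by canonical transcript) and *ACTG1* (695 and 1467) were highest. *ACTB* was 7.66 times *FLNA* per kb of exon union, 14.6 times per kb of canonical transcript and 3.11 times when length was left aside. *PXN*, which encodes the adhesion protein paxillin, was lowest of those above 1 CPM, at 0.706 CPM per kb of exon union and 1.01 by canonical transcript. Of the kinases that act on the myosin light chains, *ROCK1* and *ROCK2* were both at 12.1 CPM per kb of exon union and *MYLK* at 2.92, and by canonical transcript they were at 17.1, 17.0 and 9.09. The integrin genes *ITGA2B* and *ITGB3* stood at 262 and 20.4 CPM per kb of exon union, and at 428 and 23.4 by canonical transcript. *FERMT3*, which encodes the blood cell kindlin that activates integrins together with talin, stood at 56.6 by exon union and 264 by canonical transcript.

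Many actin cytoskeleton genes are known targets of serum response factor (*SRF*), which binds the CArG box and acts with the actin-sensing cofactor encoded by *MRTFA*. *SRF* and *MRTFA* had mean log2 CPM of 6.52 and 6.77. The RefSeq promoter windows (GRCh38.p14, 250 bases before to 50 after a start) were searched for the CArG box on both strands. There were 14 windows for 9 of the members, since *ACTN1* and *TPM4* have several starts and *MYL9* was not matched. A CArG box was found in 3 of these 14 windows, 1 each for *FLNA*, *TPM4* and *ACTN1*, and in 1.29% of all 35116 windows. The 30 bases around each match are shown on the strand of the gene, with the box in capitals, because they show how the 3 boxes differ in their central bases:
FLNA, chrX:154374709-154374738, minus strand: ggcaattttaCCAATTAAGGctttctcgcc
TPM4, chr19:16067355-16067384, plus strand: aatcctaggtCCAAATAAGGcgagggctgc
ACTN1, chr14:68977718-68977747, minus strand: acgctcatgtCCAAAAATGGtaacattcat

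The box began 94 bases before the start in *FLNA*, 173 in *TPM4* and 171 in *ACTN1*. For *TPM4* it was in 1 of several windows, as for *ACTN1*, and which start HEL cells use cannot be read from 1 value per gene. 2 shorter motifs, AGATAA (the core bound by GATA factors) and TGANTCA, were in none of the 14 windows on either strand. TGANTCA covers the AP-1 site and part of the NF-E2 site but allows any middle base, so it is looser than the AP-1 site. AGATAA and TGANTCA were in 10.3% and 7.71% of all windows. These matches say only which letters the windows hold. The GC content of the 14 windows ran from 49.3% to 78.3%, and 11 of them were above the median of all windows, 58.7%.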

How the data were processed

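Reads of the 6 libraries were aligned by the authors to hg38 with STAR (2.6.1b), and fragments per gene were counted with HTSeq (0.6.1) on a refSeq annotation. The paper's methods name DESeq2 and a filter by the authors that kept a gene if its average count reached 1 in shCtrl or shTMIGD2, whereas the deposited table is laid out like edgeR output. Whether that filter applied to this table, and its edgeR version and normalization, are not given in the sources used here. Its mean log2 CPM over all libraries, computed by the authors, was the only column used. The other 4 columns hold the authors' comparison of shTMIGD2 with shCtrl (log2 fold change, F statistic, p-value, adjusted p-value) and were not used, so the planned count test was not run and no test was made.

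Mean CPM was taken as 2 to the power of the mean log2 CPM and divided by gene length in kb. Lengths and positions come from GENCODE 44 (GRCh38); 22810 gene names were found by symbol, 572 through an older one, and 92.4% of the genes above 1 CPM had a length. The annotation differs from the one the authors counted on. 50-base stretches of canonical transcripts were searched in all transcripts of other genes. Ranks use genes above 1 CPM with a length. Named genes were the 10 members, the genes of their families, the highest, lowest and a few further partners (chosen after their values were seen), and *TMIGD2*. *MRTFA* stood in the partner list under its older symbol *MKL1*. The shares of the filamin family and 1 marker are not reported here. The members and lists were chosen with earlier results of these data known. The functions for lengths, ranks, shares and motifs were checked on made-up inputs with known answers and run with Python 3.11.15. The depth per library is unknown from the table, so no interval could be given.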

Additional observations from a re-analysis of the deposited data

How the results depend on the processing

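The median level of the 10 members was 30.2 CPM per kb of exon union, 81.0 with the canonical transcript and 70.9 with the longest transcript. The median place of the members was within the top 13.7% of genes above 1 CPM, 7.57% with all genes listed as background and 5.96% with length left aside. The median share of a member in its family was 25.2%, 28.9% with length left aside and 41.5% with the canonical transcript, an alternative chosen after seeing the data. It stayed at 25.2% with only family members above 1 CPM. *TLN1*, *MYH9* and *ZYX* were first among the family genes examined under each of these 4 settings. No paired analysis was possible because the table has 1 pooled value per gene. The alternatives that need values per library (DESeq2, other size factors, no filter on low counts, each replicate left out) were not run. Without values per library, the precision of each level is unknown.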
